A study of Mus musculus with 144 samples.

Results

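Liver zonation marker genes were followed in mouse liver as 10 genes fixed by name, of 51912 genes in the deposited count table. Glul, Oat, Lect2, Rgn, Axin2 and Tbx3 stand for the central vein side of the liver lobule, and Gls2, Hal, Sds and Cdh1 for the portal side. Liver RNA of male C57BL/6J mice, fed ad libitum under 12 h light and 12 h darkness, was read by 3′ mRNA sequencing (QuantSeq, which counts the ends of transcripts next to the poly(A) tail). There were 4 series of 36 libraries: total RNA of wild-type mice, nuclear RNA of wild-type mice, polysomal RNA of wild-type mice (RNA bound to several ribosomes, from a sucrose gradient with cycloheximide), and total RNA of Bmal1-/- mice, which lack a core activator of the circadian clock. Each series held 6 libraries at each of ZT2, 6, 10, 14, 18 and 22 (zeitgeber time, hours after lights on). The labels do not say which part of Bmal1 is altered, the age of the mice, or whether a replicate number marks the same mouse in different series.

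The liver lobule is organised along the flow of blood, from the portal vein and hepatic artery at its edge to the central vein in its middle. Hepatocytes near the portal vein carry out most urea synthesis, gluconeogenesis and breakdown of several amino acids, while those around the central vein make glutamine from left-over ammonia and hold most cytochrome P450 enzymes. Wnt ligands from endothelial cells of the central vein switch on beta-catenin in the neighbouring hepatocytes, which keeps the central genes on and the portal genes off there. Bulk liver RNA holds all zones together, so fewer cells of a zone and less RNA per cell cannot be told apart.

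Among the central genes, Glul encodes glutamine synthetase, Oat encodes ornithine aminotransferase, Lect2 encodes a secreted liver protein, and Rgn encodes regucalcin, a gluconolactonase. Axin2 is a target and inhibitor of Wnt signalling, and Tbx3 encodes a transcription factor that Wnt signalling induces in central hepatocytes. Among the portal genes, Gls2 encodes the liver glutaminase, Hal encodes histidine ammonia-lyase, Sds encodes serine dehydratase, and Cdh1 encodes E-cadherin, the adhesion protein of epithelial cells. In RefSeq's GRCm38.p6 the genes not placed further on lie at chr7:132557475-132576398 (Oat, minus strand), chr13:56529734-56548559 (Lect2, minus strand), chr11:108917828-108950783 (Axin2), chr10:128194635-128210004 (Gls2), chr5:120476547-120483932 (Sds) and chr8:106603350-106670247 (Cdh1), all protein-coding.

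The stretches of 250 bases before the start of Hal and of Glul are shown because Hal was the member with a daily rhythm and because the levels of Glul and Hal ran in opposite directions among wild-type livers. They are from RefSeq (GRCm38.p6), which held such a stretch for 5 of the 10 members, and lie at chr10:93488518-93488767 (plus strand) and chr1:153899679-153899928 (plus strand). Capitals mark the matches to 4 motifs that were searched on both strands: the E-box bound by CLOCK and BMAL1 (CACGTG), the D-box (TTANNTAA), the core of the site bound by ROR and REV-ERB proteins (AGGTCA, the ROR core) and the core of the site bound by the TCF and LEF partners of beta-catenin (CTTTGA).
Hal: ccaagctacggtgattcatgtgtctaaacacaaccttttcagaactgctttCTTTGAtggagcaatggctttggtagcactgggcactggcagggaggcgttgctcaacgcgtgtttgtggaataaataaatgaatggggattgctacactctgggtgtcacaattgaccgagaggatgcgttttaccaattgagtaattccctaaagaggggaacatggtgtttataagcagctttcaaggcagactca
Glul: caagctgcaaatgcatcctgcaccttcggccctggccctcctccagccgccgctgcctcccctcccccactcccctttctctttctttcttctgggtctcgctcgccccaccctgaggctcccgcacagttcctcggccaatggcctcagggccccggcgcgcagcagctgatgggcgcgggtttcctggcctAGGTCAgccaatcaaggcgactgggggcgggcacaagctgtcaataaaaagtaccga
Hal had 1 match to the TCF and LEF core, which began 199 bases before the start, and Glul had 1 match to the ROR core, 57 bases before the start. The stretch before Oat held no match. The RefSeq stretches of Lect2 and Axin2 overlap or lie inside the annotated genes, before another start, and are not shown. That of Lect2 held a match to the TCF and LEF core, 31 bases before that start, and that of Axin2 held no match. Of 32851 windows of the same length, 13.8% held the TCF and LEF core, 14.02% the ROR core, 6.02% the E-box and 5.43% the D-box. A match describes these letters and is not evidence of binding.

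The summed gene counts per library spanned 5316601 to 9831142 (wild-type total), 1662449 to 6620128 (nuclear), 2578048 to 13068044 (polysomal) and 4379549 to 14281894 (Bmal1-/- total). Dbp, a direct target of the clock, had a mean of 27.0 CPM (counts scaled to a common library total) ± 37.5 (SD, n = 36) in wild-type total RNA. In Bmal1-/- total RNA Dbp was at 2.74 CPM ± 0.941 (SD, n = 36). Arntl, the symbol of Bmal1, averaged 6.735 CPM ± 5.396 (SD, n = 36) in wild-type and 11.5 CPM ± 2.98 (SD, n = 36) in Bmal1-/- total RNA. In each series 1 library, at ZT22, held over 100 CPM of the female transcript Xist against its label: wild-type total replicate 5, nuclear replicate 5, polysomal replicate 1 and Bmal1-/- replicate 6. The defining hepatocyte markers were present in every library, with a summed level from 41050 to 102600 CPM in wild-type and from 41310 to 116400 CPM in Bmal1-/- total RNA. Replicates 1 to 3 and replicates 4 to 6 stood apart for several members, so that values within each set are given beside several results; the labels do not say what the numbers stand for.

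**Figure D1:**
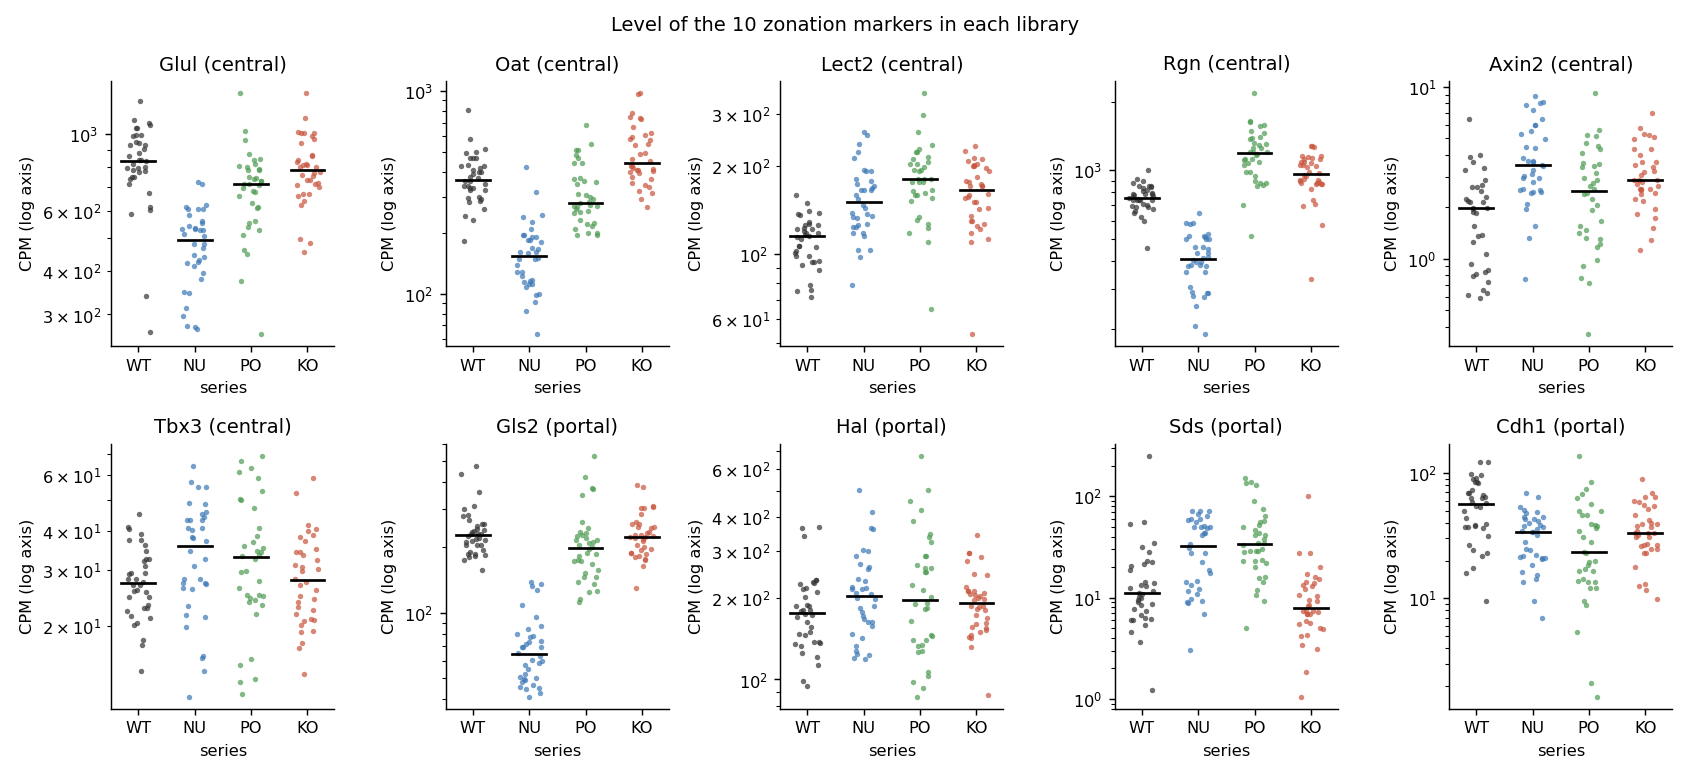
Level of each member in the 144 libraries, in CPM on a log axis, by series (WT wild-type total, NU wild-type nuclear, PO wild-type polysomal, KO Bmal1-/- total). Each point is 1 library and each bar the median of 36. All nuclear Gls2 values, from 40.9 to 138 CPM, lie below the lowest wild-type total value of 157 CPM.

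In Bmal1-/- total RNA, 4 of the 6 central genes rose against wild-type total RNA (Lect2, Axin2, Oat and Rgn) and 2 of the 4 portal genes fell (Sds and Cdh1), while Glul, Tbx3, Gls2 and Hal did not pass the test. Of all 12082 genes tested, 44.2% passed, 21.7% higher and 22.4% lower, so that 6 of 10 members stood beside a background of that size. The test was edgeR's quasi-likelihood test over the mean of the 6 time points, with Benjamini-Hochberg adjustment over all genes and a threshold of 0.05. The median log2 change was 0.27 over the 6 central and -0.43 over the 4 portal genes, beside a median of -0.00 over all genes.

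Lect2 had a median of 115 CPM (71.65 to 159 CPM) in wild-type and 165.5 CPM (53.5 to 233 CPM, n = 36) in Bmal1-/- total RNA. Bmal1-/- means of Lect2 exceeded those of wild-type at 6 of 6 time points, 33 of 36 Bmal1-/- libraries lay above the wild-type median, and at 2 time points the groups did not overlap. Lect2 rose by 0.44 on the log2 scale (SE 0.07, edgeR adjusted p = 4.7e-07). Replicates 1 to 3 alone gave 0.36 and replicates 4 to 6 alone 0.51, past the threshold in both.

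Rgn had a median of 757.5 CPM (454 to 1001 CPM) in wild-type and 958 CPM (331 to 1283 CPM) in Bmal1-/- total RNA. The mean of Rgn was higher at 6 of 6 time points and 31 of 36 Bmal1-/- libraries were above the wild-type median, although the ranges overlapped at 5 of the time points. Its log2 change was 0.23 (SE 0.06, edgeR adjusted p = 0.00127), close in both replicate sets at 0.24 and 0.21, though the second missed the threshold (adjusted p = 0.0918).

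Oat and Axin2 were also higher in Bmal1-/- at 6 of 6 time points, but only one replicate set carried the change. Oat had a median of 366 CPM in wild-type (183 to 807 CPM) and 442 CPM in Bmal1-/- (267 to 978.5 CPM), with a log2 change of 0.31 (SE 0.11, edgeR adjusted p = 0.015). For Oat it was 0.58 in replicates 1 to 3 and 0.03 in replicates 4 to 6, and the call was lost without replicate 2 (0.20, adjusted p = 0.154) and without replicate 3 (0.28, adjusted p = 0.0688). Axin2 was counted thinly, with 15.4 counts per library in wild-type and 24.6 in Bmal1-/- on average. Its median was 1.97 CPM in wild-type (0.594 to 6.51 CPM) and 2.86 CPM in Bmal1-/- (1.12 to 7.03 CPM), with a log2 change of 0.57 (SE 0.17, edgeR adjusted p = 0.0051). For Axin2 it was 1.06 in replicates 1 to 3 and 0.06 in replicates 4 to 6, and the call was lost without replicate 1 (0.44, adjusted p = 0.0571) and without replicate 3 (0.45, adjusted p = 0.0535). The difference between the sets was not tested for either gene.

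Glul, the most familiar central marker, had a median of 836 CPM in wild-type (268 to 1248 CPM) and 788.5 CPM in Bmal1-/- total RNA (455 to 1312 CPM). The groups overlapped at every time point, and the log2 change of Glul was -0.15 (SE 0.08, edgeR adjusted p = 0.135), though without replicate 2 Glul was at -0.24 and passed (adjusted p = 0.014). Tbx3 had a median of 27.3 CPM in wild-type and 27.9 CPM in Bmal1-/-, with a log2 change of -0.04 (SE 0.10, edgeR adjusted p = 0.763). Tbx3 was at 0.13 in replicates 1 to 3 and -0.25 in replicates 4 to 6, neither past the threshold.

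On the portal side, Cdh1 had a median of 56.0 CPM in wild-type (9.45 to 123 CPM) and 33.2 CPM in Bmal1-/- total RNA (9.82 to 89.7 CPM). Bmal1-/- means of Cdh1 lay below those of wild-type at 6 of 6 time points, and 6 of 36 Bmal1-/- libraries lay above the wild-type median. Cdh1 fell by 0.70 on the log2 scale (SE 0.18, edgeR adjusted p = 0.00109). The change was -1.36 in replicates 4 to 6, where wild-type Cdh1 averaged 75.75 CPM, and 0.14 (adjusted p = 0.694) in replicates 1 to 3, where wild-type Cdh1 averaged 38.2 CPM.

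Relative to its mean, Sds spread more than any other member among wild-type libraries, from 1.22 to 251 CPM with a median of 11.04 CPM, against 1.05 to 101 CPM with a median of 7.80 CPM in Bmal1-/-. Sds fell by 0.83 on the log2 scale (SE 0.31, edgeR adjusted p = 0.0256), but its mean was lower at 4 of 6 time points only. Without replicate 4 the change of Sds was -0.12 (adjusted p = 0.761), without replicate 5 it was -0.76 (adjusted p = 0.0748), and without the Xist libraries -0.74 (adjusted p = 0.0505). In replicates 1 to 3 it was 0.21 (adjusted p = 0.716) and in replicates 4 to 6 -1.69. Gls2 had a median of 228.5 CPM in wild-type and 224 CPM in Bmal1-/-, and its log2 change was -0.15 (SE 0.08, edgeR adjusted p = 0.111), or -0.22 without replicate 3 (adjusted p = 0.0331). Hal had a median of 176.5 CPM in wild-type and 192 CPM in Bmal1-/-, and its log2 change was 0.02 (SE 0.08, edgeR adjusted p = 0.839). Hal was at -0.08 in replicates 1 to 3 and 0.11 in replicates 4 to 6, neither past the threshold.

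Markers of bile duct cells, which line the portal tract and also express Cdh1, summed to 16.3 to 66.6 CPM (median 25.7 CPM) in wild-type and 45.8 to 136 CPM (median 73.6 CPM) in Bmal1-/- total RNA. Of the 7 markers 2 could be tested and both were higher, Sox9 with means of 22.5 and 60.5 CPM and Spp1 with 6.87 and 17.4 CPM, while the defining markers Krt19, Krt7 and Epcam stayed below 1 CPM on average in both. Markers of Kupffer cells, the liver's macrophages, summed to 117 to 791 CPM (median 220 CPM) in wild-type and 83.7 to 429 CPM (median 202 CPM) in Bmal1-/-, with 5 of 6 lower and 0 higher. Blood cell markers summed to 531 to 13040 CPM (median 2513 CPM) and 26.7 to 5453 CPM (median 1436 CPM), with 4 of the 5 tested lower and 0 higher. The part of these cells in the levels of the members was not tested.

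**Figure D2:**
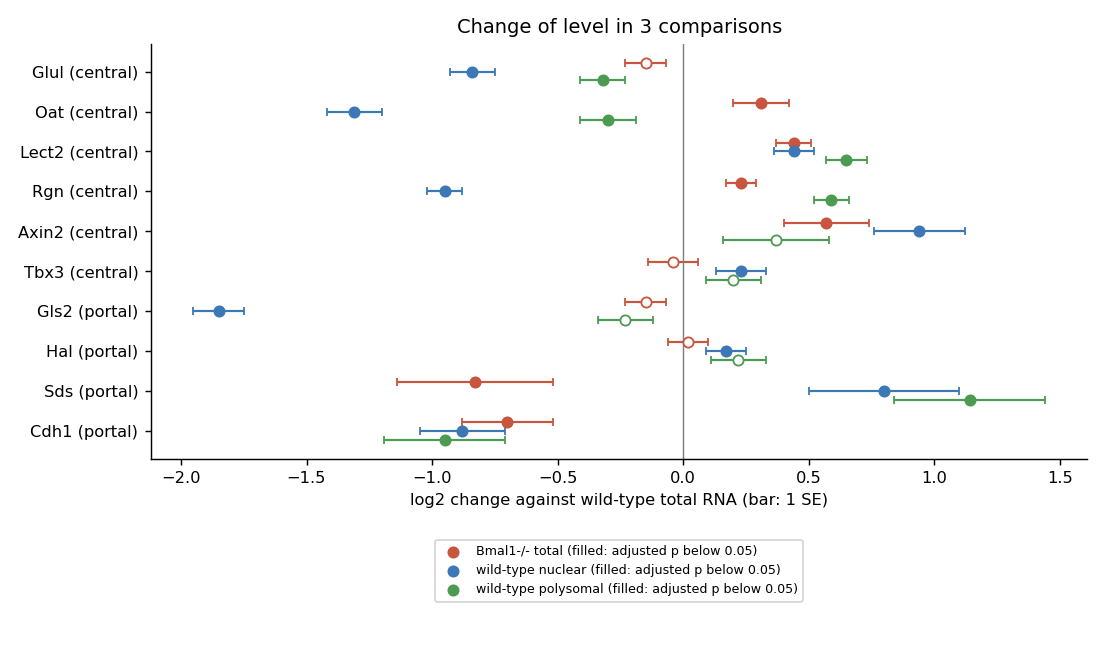
Log2 change of each member against wild-type total RNA in Bmal1-/- total, nuclear and polysomal RNA, with bars of 1 SE from the edgeR fit. Filled points passed the threshold. Gls2 at -1.85 in nuclear RNA lies farthest from 0, and Cdh1 is the only member below 0 and past the threshold in all 3 comparisons.

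A wider list of 22 central genes had 6 higher and 6 lower in Bmal1-/-, with a median log2 change of 0.06. The largest were Aldh3a2, a fatty aldehyde dehydrogenase, which fell by 2.44 on the log2 scale (SE 0.15, 110 to 21.8 CPM), and Gstm3, a glutathione transferase, and Cyp2c29, a cytochrome P450, which rose by 1.66 (SE 0.20) and 1.31 (SE 0.10). In a list of 22 portal genes 4 were higher and 11 lower, with a median of -0.22. Hsd17b6, a steroid dehydrogenase, rose by 1.21 (SE 0.14), while Asl of the urea cycle and the aldehyde dehydrogenase Aldh1b1 fell by 0.96 (SE 0.12) and 0.83 (SE 0.13). Of 27 genes of the Wnt pathway 23 were tested, 5 were higher and 4 lower, with a median of -0.05. The Wnt receptors Fzd8 and Lrp5 each rose by 0.60 (SE 0.09 and 0.10), and Bcl9l, a partner of beta-catenin, rose by 0.25 (SE 0.07).

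The second comparison asked which member transcripts were high or low in the nucleus relative to the whole tissue. All 10 members passed the test, 5 higher and 5 lower, where 83.8% of 11864 genes passed (41.6% higher and 42.1% lower), so a count of 10 is near what the background gives. These are shares of each library's counts, and a change is relative to the other RNAs of the fraction. Hepatocyte markers summed to a median of 50410 CPM in nuclear and 83750 CPM in total RNA.

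Gls2 was the member with the largest drop in nuclear against total RNA. It had a median of 64.2 CPM in nuclear RNA (40.9 to 138 CPM) against 228.5 CPM in total RNA (157 to 472 CPM), and all 36 nuclear libraries lay below the lowest total library. Gls2 fell by 1.85 on the log2 scale (SE 0.10, edgeR adjusted p = 2.21e-28). Oat followed with a median of 155 CPM against 366 CPM and a log2 change of -1.31 (SE 0.11, adjusted p = 1.55e-18), and 24 of 36 nuclear libraries lay below every total library. Rgn had a median of 408 CPM against 757.5 CPM and a log2 change of -0.95 (SE 0.07, adjusted p = 5.59e-20). Glul had a mean of 481 CPM ± 119 (SD, n = 36) against 835 CPM ± 197.5 (log2 change -0.84, SE 0.09), and Cdh1 a mean of 32.5 CPM ± 15.02 against 57.0 CPM ± 29.2 (log2 change -0.88, SE 0.17). These 5 were lower in nuclear RNA at 6 of 6 time points and in both replicate sets.

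Axin2 and Lect2 were higher in nuclear RNA at 6 of 6 time points. Axin2 had a median of 3.50 CPM (0.760 to 8.88 CPM) against 1.97 CPM in total RNA, with a log2 change of 0.94 (SE 0.18, edgeR adjusted p = 4.28e-06). Lect2 had a median of 150 CPM against 115 CPM, with a log2 change of 0.44 (SE 0.08, adjusted p = 9.04e-07). Sds rose by 0.80 (SE 0.30, adjusted p = 0.0109) and Tbx3 by 0.23 (SE 0.10, adjusted p = 0.0266). Hal rose by 0.17 (SE 0.08, adjusted p = 0.0492). Sds missed the threshold without replicate 2 (0.63, adjusted p = 0.095) and within replicates 4 to 6 (0.34, adjusted p = 0.488). Tbx3 missed it within replicates 1 to 3 (0.12), without replicate 5 (adjusted p = 0.0653) and without replicate 6 (adjusted p = 0.165). Hal missed it within replicates 4 to 6 (0.10), without replicate 1 (adjusted p = 0.171) and without replicate 4 (adjusted p = 0.0507). With genes of a mean of at least 1 count included, Tbx3 was at 0.12 (adjusted p = 0.262) and Hal at 0.06 (adjusted p = 0.506).

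Among the wider lists, 8 of 21 central genes tested were higher and 9 lower in nuclear RNA, and 5 of 22 portal genes were higher and 12 lower. The portal gene Aldh1b1 fell by 2.15 (SE 0.16) and Fbp1, a gluconeogenic enzyme, by 2.00 (SE 0.08). The central genes Aldh3a2, Slco1b2, a bile acid and drug transporter, and Aldh1a1, a retinal dehydrogenase, fell by 2.16 (SE 0.14), 1.66 (SE 0.08) and 1.37 (SE 0.10). Of 22 Wnt pathway genes tested 13 were higher and 7 lower, led by Bcl9l at 2.37 (SE 0.10), Lrp5 at 1.63 (SE 0.11) and Pygo2, another partner of beta-catenin, at 1.54 (SE 0.08).

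In polysomal RNA, 3 members rose against total RNA (Sds, Lect2 and Rgn) and 3 fell (Cdh1, Glul and Oat), where 76.1% of 11556 genes passed the test, 38.4% higher and 37.6% lower. Rgn had a median of 1189 CPM in polysomal RNA (513 to 2181 CPM) against 757.5 CPM in total RNA, and 26 of 36 polysomal libraries lay above the highest total library. Its log2 change was 0.59 (SE 0.07, edgeR adjusted p = 1.08e-10). Rgn counts include sites that begin 70 and 2569 bases into the gene, described below. These sites held 17.3% and 11.55% of the counts over all Rgn sites in polysomal RNA, against 3.41% and 7.18% in total RNA. The level at the main 3′ end of Rgn alone was not tested. Lect2 had a median of 180 CPM (65.3 to 353 CPM) against 115 CPM, also with 26 of 36 libraries above every total library, and a log2 change of 0.65 (SE 0.08, adjusted p = 1.13e-10). Both were higher in each replicate set and at 6 of 6 time points.

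Sds had a median of 33.7 CPM in polysomal RNA (4.996 to 152 CPM) against 11.04 CPM in total RNA, and 33 of 36 libraries lay above the total median. Sds rose by 1.14 (SE 0.30, edgeR adjusted p = 0.000554). Within replicates 4 to 6 Sds was at 0.83 and missed the threshold (adjusted p = 0.0695). Glul had a median of 718 CPM against 836 CPM, with a log2 change of -0.32 (SE 0.09, adjusted p = 0.000712). For Glul it was -0.48 in replicates 1 to 3 and -0.20 in replicates 4 to 6, where Glul missed the threshold (adjusted p = 0.104).

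When sets of the same replicate numbers were compared, the polysomal levels of Cdh1 and Oat were lower in replicates 4 to 6 alone. Over all genes, 0 of 36 polysomal libraries went best with the total library of their own number. Sets of the same numbers may therefore hold different livers in polysomal and total RNA. The Xist library at ZT22 was replicate 5 in total and replicate 1 in polysomal RNA. Polysomal values by set, also those given above, therefore cannot tell a change between fractions from a difference between livers. Cdh1 averaged 49.1 CPM in polysomal replicates 1 to 3 and 16.5 CPM in replicates 4 to 6. In total RNA the first set was the lower, at 38.2 CPM against 75.75 CPM. Each polysomal set thus lay below the total set of the other numbers. Cdh1 was at -0.95 over all libraries (SE 0.24, edgeR adjusted p = 0.000305), 0.35 in replicates 1 to 3 (adjusted p = 0.184) and -2.58 in replicates 4 to 6. Oat was at -0.30 over all libraries (SE 0.11, adjusted p = 0.0131), 0.02 in replicates 1 to 3 and -0.69 in replicates 4 to 6, and lost the call without replicate 4 (-0.15, adjusted p = 0.243) and without replicate 6 (-0.23, adjusted p = 0.105). The other four members did not pass over all libraries: Axin2 was at 0.37 (SE 0.21), Tbx3 at 0.20 (SE 0.11), Hal at 0.22 (SE 0.11, adjusted p = 0.0615) and Gls2 at -0.23 (SE 0.11, adjusted p = 0.0614). Gls2 passed in 8 of 15 settings, among them without the Xist libraries (-0.27, adjusted p = 0.0082), without replicate 1 (-0.47, adjusted p = 5.43e-06) and with DESeq2 (-0.31, adjusted p = 0.00771). Gls2 was at 0.15 in replicates 1 to 3 (adjusted p = 0.443) and -0.66 in replicates 4 to 6 (adjusted p = 5.22e-06). Hal passed without replicate 4 (0.30), 5 (0.33) or 6 (0.28), and Tbx3 without replicate 4 (0.33) or 5 (0.28), as did Axin2 (0.53 and 0.52). In replicates 1 to 3 alone Hal was at 0.59 and Tbx3 at 0.55, both past the threshold, and in replicates 4 to 6 Hal was at -0.22 and Tbx3 at -0.25, neither past it. Blood cell markers summed to a median of 8760 CPM in polysomal and 2513 CPM in total RNA. Hepatocyte markers summed to a median of 41940 CPM against 83750 CPM, with 5 of 6 lower and 0 higher. The part of either in these levels was not tested.

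In the wider lists, 5 of 22 central genes were higher and 6 lower in polysomal RNA, and 2 of 22 portal genes were higher and 15 lower. Cyp2c29 rose by 1.06 (SE 0.12) and Cyp1a2, another cytochrome P450, by 0.56 (SE 0.12), while Nr1i3, a nuclear receptor for foreign compounds, fell by 1.05 (SE 0.11). Among portal genes Aldh1b1 fell by 1.97 (SE 0.20), and Sdsl, a relative of Sds, rose by 1.95 (SE 0.13). In the Wnt list 11 of 22 genes tested were higher and 4 lower, with Pygo2 at 1.53 (SE 0.07), Bcl9l at 0.95 (SE 0.10) and Apc, part of the complex that destroys beta-catenin, at -0.93 (SE 0.10). The 3 comparisons share the wild-type total libraries, so their values stand side by side only.

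In the main fits, of all libraries of each series on its own and without a term for the replicate number, Hal was the only member with a called daily rhythm. A cosine of 24 h was called for 1 of 10 members in wild-type total RNA, where 18.9% of 11964 genes passed, for 1 in nuclear RNA (5.99% of 11172 genes) and for 1 in polysomal RNA (7.9% of 10691 genes), and each time that member was Hal. In wild-type total RNA Hal had its highest mean at ZT2, 265 CPM ± 67.5 (SD, n = 6, 201 to 363 CPM), and its lowest at ZT14, 128 CPM ± 33.5 (SD, n = 6, 94.6 to 179 CPM), and these groups did not overlap. Between them, Hal was at 203 CPM at ZT6, 181 CPM at ZT10, 138 CPM at ZT18 and 198 CPM at ZT22, and the ZT22 mean held the Xist library at 368 CPM above the others at 146 to 180 CPM.

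The fitted peak of Hal was at ZT2.75 (SE 0.603 h) with a peak-to-trough ratio of 1.95 (edgeR adjusted p = 5.41e-05). In nuclear RNA the peak of Hal was at ZT2.01 (SE 0.821 h) with a ratio of 1.79 (adjusted p = 0.0049), and in polysomal RNA at ZT4.29 (SE 0.819 h) with a ratio of 2.27 (adjusted p = 0.00699). The Hal call held under all 16 fits tried in total RNA. It was lost in nuclear RNA without replicate 1 (adjusted p = 0.052) and in either replicate set alone (adjusted p = 0.0835 and 0.383). In polysomal RNA it was lost in replicates 1 to 3 (adjusted p = 0.377) and with time as 6 free levels (adjusted p = 0.0765).

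In Bmal1-/- total RNA no member had a called rhythm, where edgeR called 0.00825% of 12126 genes, DESeq2 called 0, and 1 member, Gls2, had an unadjusted p under 0.05. The means of Hal lay between 173.5 CPM at ZT14 and 212 CPM at ZT2, with a fitted ratio of 1.16 (adjusted p = 1). The test of the difference of rhythm between Bmal1-/- and wild-type total RNA called 5.11% of 12082 genes and 0 members with edgeR, as with DESeq2. An unadjusted p under 0.05 was found for 3 members, with edgeR adjusted p-values of 0.0766 for Hal, 0.197 for Tbx3 and 0.232 for Lect2. A different Hal rhythm in Bmal1-/- was therefore not shown at this threshold. In simulated counts this test recovered 46 of 200 differences of rhythm of 2-fold, so differences of that size can be missed. The simulation changed 200 of 12082 genes and gave every gene the same spread. The rate for Hal in these data is therefore not known. Against total RNA, the rhythm in nuclear RNA differed for 0% of 11864 genes with edgeR and 0 genes with DESeq2, with 244 genes and 0 members at an unadjusted p under 0.05. In polysomal RNA it differed for 0% of 11556 genes with edgeR and 15 genes with DESeq2, with 681 genes and 0 members at an unadjusted p under 0.05.

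**Figure D3:**
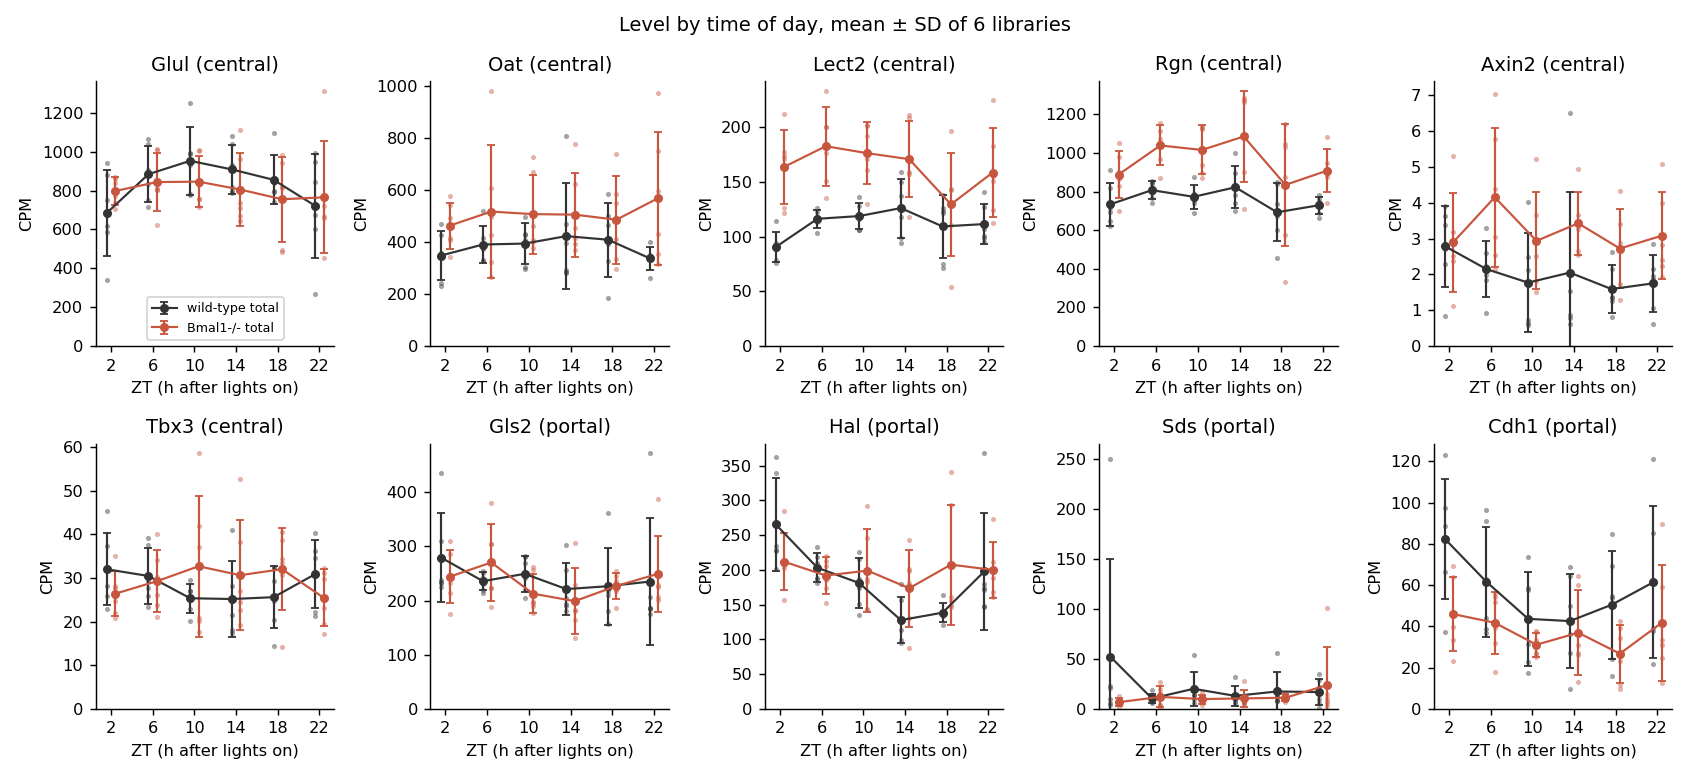
Level of each member by time of day in wild-type and Bmal1-/- total RNA, in CPM. Points are single libraries, and lines join means with bars of 1 SD (n = 6, cut at 0). Hal in wild-type falls from 265 CPM at ZT2 to 128 CPM at ZT14, while its Bmal1-/- means stay between 173.5 and 212 CPM.

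For the other members the fitted ratio in wild-type total RNA lay between 1.08 for Rgn and 2.63 for Sds. Cdh1 had a ratio of 1.94 with a fitted peak at ZT1.28 (edgeR adjusted p = 0.132), and Tbx3 a ratio of 1.37 with a peak at ZT1.21 (adjusted p = 0.104). Cdh1 passed in replicates 4 to 6 alone (adjusted p = 0.0208) and Tbx3 in replicates 1 to 3 alone (adjusted p = 0.0359). With the replicate number added to the edgeR fit as a block, Cdh1 passed over all libraries (adjusted p = 0.00901). In polysomal RNA Cdh1 and Tbx3 passed when all 4 series were fitted together (adjusted p = 0.0324 and 0.0449), and with the replicate block (adjusted p = 0.00835 and 0.0249). Glul had its highest mean at ZT10, 953 CPM ± 174 (SD, n = 6), and its lowest at ZT2, 685 CPM ± 220 (SD, n = 6), with overlapping groups, a ratio of 1.32 and an adjusted p of 0.227. In the wider lists 5 of 22 central, 4 of 22 portal and 4 of 22 tested Wnt pathway genes were rhythmic in wild-type total RNA, shares near the 18.9% of all genes. Cyp7a1, the rate-limiting enzyme of bile acid synthesis, had a ratio of 5.26 with a peak at ZT14.8, and Nr1i3 a ratio of 2.15 with a peak at ZT14.6. Slc1a4, an amino acid transporter, had a ratio of 2.05 with a peak at ZT23.3. Amdhd1, which acts later than Hal in histidine breakdown, had a ratio of 2.13 with a peak at ZT4.2, and its rhythm differed in Bmal1-/- (edgeR adjusted p = 0.00104). Asl had a ratio of 2.21 (peak ZT17.9) and G6pc, glucose-6-phosphatase, a ratio of 1.83 (peak ZT23.3). The Wnt receptors Fzd7, Lrp5 and Fzd4 had ratios of 1.91, 1.76 and 1.72.

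Members were also compared with each other among wild-type livers, after the mean of each time point was taken out of the log2(CPM + 1) values. Of 45 pairs 4 passed a 2-sided permutation test within time points (100000 resamples, Benjamini-Hochberg adjusted over the 45). Glul ran against Gls2, with Pearson's r = -0.763 (adjusted permutation p = 0.0027) and Spearman's rho = -0.57 (adjusted permutation p = 0.0166) over 36 libraries. Glul also ran against Hal, with r = -0.748 (adjusted permutation p = 0.0027) and rho = -0.642 (adjusted permutation p = 0.00585). Gls2 and Hal rose and fell together, with r = 0.738 (adjusted permutation p = 0.003) and rho = 0.559 (adjusted permutation p = 0.0186). Axin2 and Tbx3 had r = 0.498 (adjusted permutation p = 0.0427) and rho = 0.426 (adjusted permutation p = 0.0984).

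Without the 2 libraries farthest from the median on the first gene, r was -0.509 for Glul and Gls2, -0.543 for Glul and Hal, 0.605 for Gls2 and Hal and 0.36 for Axin2 and Tbx3. The wild-type Xist library held the lowest Glul (268 CPM) and the highest Gls2 (472 CPM) and Hal (368 CPM). Without it, r was -0.60 for Glul and Gls2, -0.59 for Glul and Hal and 0.58 for Gls2 and Hal, all past the threshold. Within replicates 1 to 3 and 4 to 6, r was -0.798 and -0.724 for Glul and Gls2, and -0.82 and -0.816 for Glul and Hal, with 18 libraries each, and only the last passed the threshold. With the mean of each replicate set taken out as well, r was -0.74 for Glul and Gls2 (adjusted permutation p = 0.152) and 2 pairs of the 45 passed. This fit was chosen after the data had been seen.

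In Bmal1-/- total RNA r was -0.0481 for Glul and Gls2, -0.492 for Glul and Hal, 0.436 for Gls2 and Hal and 0.496 for Axin2 and Tbx3. The difference from wild-type was not past the threshold for any of these 4 pairs (adjusted permutation p = 0.0804 for Glul and Gls2). Of the 45 pairs 1 did differ, Gls2 and Cdh1, at r = 0.436 in wild-type and -0.331 in Bmal1-/- (adjusted permutation p = 0.0256). In nuclear and polysomal RNA r of Glul and Gls2 was -0.109 and -0.341, and that of Glul and Hal was -0.141 and -0.233. For Gls2 and Hal it was 0.756 and 0.874.

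**Figure D4:**
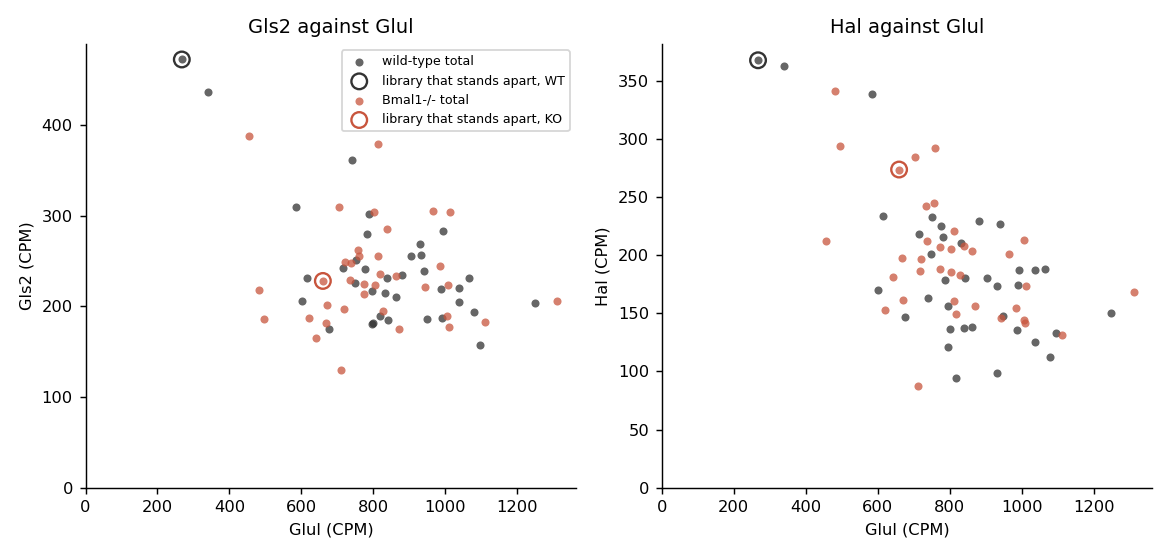
Gls2 (left) and Hal (right) against Glul, in CPM, in wild-type and Bmal1-/- total RNA. Each point is 1 library, and rings mark the library of each series that held over 100 CPM of Xist. The ringed wild-type library has the lowest Glul (268 CPM) and the highest Gls2 (472 CPM) and Hal (368 CPM).

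Across the 36 wild-type total libraries, among 7973 genes that averaged 50 counts or more, the genes most like Glul by Pearson's r of log2(CPM + 1) were Nxpe2 (0.826), the major urinary protein genes Mup14 (0.771), Mup8 (0.737) and Mup15 (0.729), and the bile acid transporter gene Slc10a1 (0.711). The Mup genes are near-identical copies, so reads may be split among them. The genes most like Gls2 were Slc25a15, the mitochondrial ornithine carrier (0.764), Got1, an aspartate aminotransferase (0.727), Degs1 (0.722), Rgs5 (0.702) and Cyp4f15 (0.700). Glul had r below 0 with 21 of 22 genes of the portal list, with a median r of -0.313, where 48.0% of all genes compared had r below 0. These correlations describe libraries that share depth and composition and carry no test. They include the Xist library, which held the lowest Glul, and the time-point means were not taken out. They were not repeated without that library.

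The 3′ ends used by the members were compared next. Rgn, Hal, Glul, Tbx3 and Sds had 2 or more 3′ ends that each held 5% or more of the gene's site counts. Site counts are those summed over the sites assigned to the gene, and the share of each end was tested with that sum as offset. They were 0.757 of the gene counts for Hal and 0.779 for Tbx3. For Tbx3 they averaged 78.7 of 143.8 gene counts per library in nuclear and 178 of 219 in total RNA. Shares below are of site counts. In Bmal1-/- total RNA 0 of 13 member ends passed, where 8.8% of 13212 sites did. That was edgeR's quasi-likelihood test, the one tool run on shares, and 2 member ends had an unadjusted p under 0.05. In nuclear RNA 13 of 15 passed, where 78.7% of 11676 sites did, and in polysomal RNA 6 of 12, where 70.4% of 12387 sites did, so the nuclear count is near what the background gives. Positions are those of the authors' site list, and the builds named in the submitters' processing notes are mm10 and GRCm38.p5.

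Rgn, at chrX:20549766-20562089 in RefSeq, had its main 3′ end at chrX:20561816-20562096, at the annotated end of the gene. That end held 81.2% ± 4.201 (SD, n = 36) of Rgn site counts in total, 60.7% ± 5.45 in nuclear and 67.2% ± 8.35 in polysomal RNA. A site at chrX:20549836-20549861, which begins 70 bases into the annotated gene, held 3.41% ± 1.06 in total (1.68% to 5.98%), 13.01% ± 4.13 in nuclear (6.11% to 21.8%) and 17.3% ± 3.58 in polysomal RNA (9.52% to 23.9%). The ranges of total and polysomal RNA did not overlap, nor did those of total and nuclear RNA. The log2 change of the Rgn share there was 1.93 in nuclear (SE 0.11, edgeR adjusted p = 7.12e-25) and 2.34 in polysomal RNA (SE 0.09, edgeR adjusted p = 6.47e-32). Another Rgn site at chrX:20552335-20552452, which begins 2569 bases into the gene, held 7.18% ± 2.42 in total, 21.3% ± 4.33 in nuclear and 11.55% ± 5.74 in polysomal RNA. Whether these Rgn sites are exonic was not determined, since exon models were not used here.

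Hal, at chr10:93488768-93516761, ended mainly at chr10:93516364-93516595, with 74.05% ± 4.23 (SD, n = 36) of its site counts in total and 81.85% ± 4.92 in nuclear RNA. The Hal end at chr10:93516639-93516766, at the annotated gene end, held 13.7% ± 3.21 in total (8.79% to 26.9%) and 4.01% ± 1.35 in nuclear RNA (1.81% to 7.54%), without overlap (log2 change -1.80, SE 0.09, edgeR adjusted p = 9.42e-28). In polysomal RNA it held 12.05% ± 3.58 (edgeR adjusted p = 0.0503), a difference that passed without replicate 1 (adjusted p = 0.0352), 3 (0.0214) or 6 (0.0358).

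Glul, at chr1:153899929-153909723, ended at chr1:153909517-153909700 for 86.9% ± 1.76 (SD, n = 36) of its site counts in total and 80.9% ± 4.35 in nuclear RNA. A Glul end 1427 bases before the gene end, at chr1:153908184-153908296, held 5.37% ± 1.38 in total and 10.6% ± 2.67 in nuclear RNA (log2 change 0.97, SE 0.08, edgeR adjusted p = 7.55e-17). Tbx3, at chr5:119670534-119684724, had 2 main ends and a lesser one. The earlier Tbx3 end, at chr5:119683891-119684002, held 43.0% ± 6.61 in total, 24.05% ± 8.82 in nuclear and 35.0% ± 9.98 in polysomal RNA. The later one, at chr5:119684477-119684584, held 49.95% ± 6.54, 65.4% ± 9.79 and 54.55% ± 12.0. The Tbx3 share of the earlier end fell in both fractions (-0.86 and -0.31 on the log2 scale, edgeR adjusted p = 1.98e-13 and 0.00213). In polysomal RNA that fall missed the threshold in replicates 4 to 6 alone (-0.23, edgeR adjusted p = 0.166). Neither of the 2 ends of Sds passed in any of the 3 comparisons of all libraries. Oat had 1 end above the minimum share and Lect2, Gls2 and Cdh1 had 1 site each, so usage could not be tested, and no site was assigned to Axin2.

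**Figure D5:**
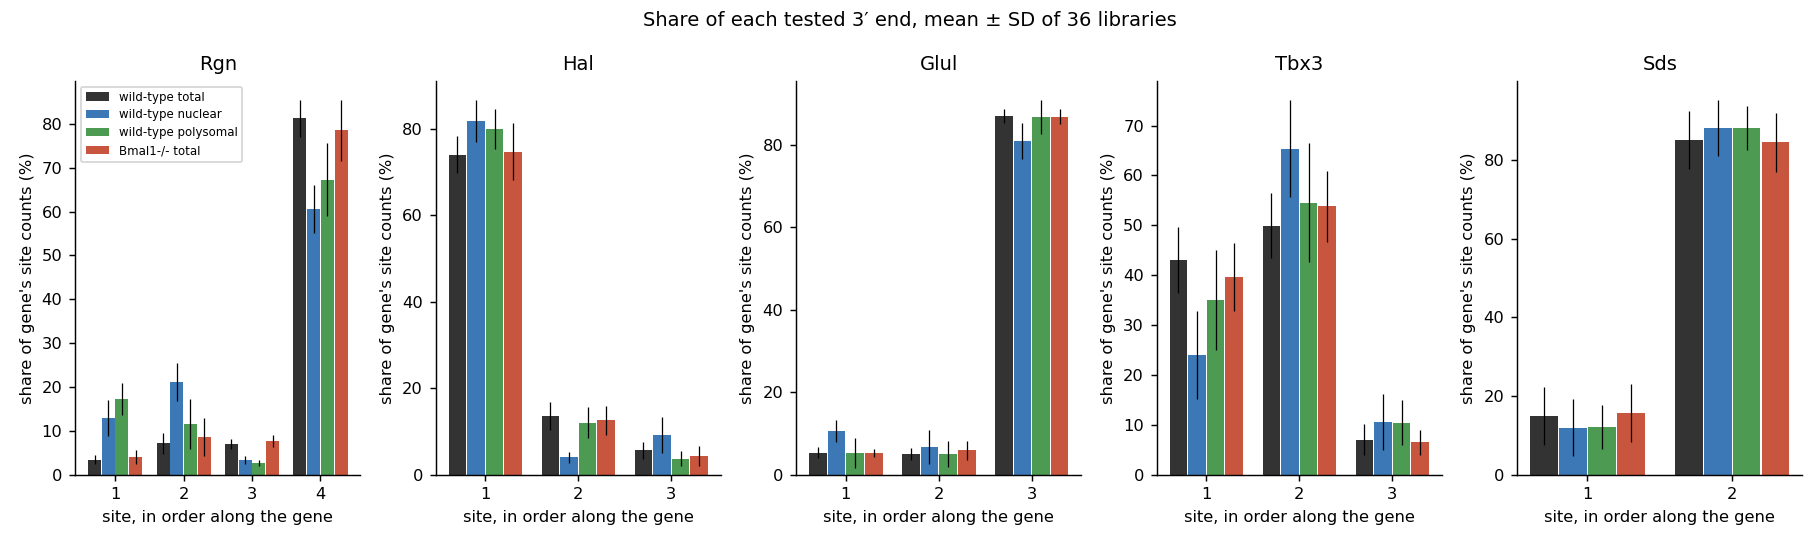
Share of each tested 3′ end in its gene's site counts, in percent, with ends numbered along each gene. Bars are means of 36 libraries and lines 1 SD, by series. The first Rgn site holds 3.41% in wild-type total, 13.01% in nuclear, 17.3% in polysomal and 4.05% in Bmal1-/- total RNA (not tested in the last).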

How the data were processed

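The authors deposited raw counts per gene and per polyadenylation site for 144 libraries. Per the submitters' processing notes, STAR 2.4.2a, HOMER and edgeR were used with mm10 and GRCm38.p5, and the notes give no role or order. CPM was computed from the deposited counts per library total. Genes averaging 10 counts or more were tested with edgeR 4.0.16 in R 4.3.3 (TMM scaling, robust quasi-likelihood tests, Benjamini-Hochberg adjustment, 0.05), with DESeq2 1.42.0 as an alternative. The score column of the deposited site list was 0 throughout and was not used, and the authors' filter on sites is not given in the sources used here. Of 29199 filtered sites 25981 were assigned to 8800 genes through RefSeq GRCm38.p6. Usage needed at least 5% of a gene's summed site counts and a mean of at least 50 such counts. The offset was the log of the summed site counts plus 0.5. No copies were found in 360 pairs within groups (0 identical). All members are described in each comparison. From each wider list the text names up to 3 genes past the threshold with the largest change (mean of at least 50 counts) or, for rhythm, the largest ratio. A gene that this rule names is not reported here. The members and lists were chosen with earlier results of these data known. The labels do not say whether libraries come from separate mice, so p-values measure the spread between libraries. Alternatives changed the scaling, filter, tool and time model, added the replicate block, and left out each replicate, each set of 3 replicates or the Xist libraries. The fits were tested on simulated counts with 200 genes changed 2-fold and the same spread for every gene. The level fit recovered 200 of them, the rhythm fit 154 and the fit of the difference of rhythm 46. False calls numbered 14, 8 and 0. Correlations in the other series, and with the replicate sets taken out, were added after the data had been seen.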

Additional observations from a re-analysis of the deposited data

Results flagged for a closer look

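Within groups of 6 libraries, the highest or lowest library was set apart from the rest by more than Dixon's 95% limit in 34 of 240 groups of the 10 members. The limit flags about 1 group in 20 by chance only where values are normally distributed. The values here are CPM and the members share libraries, so the number of groups was not compared with that rate. The library set apart was high except for 1 of Tbx3 and 1 of Cdh1.

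Sds had the widest gap. Wild-type total replicate 4 was set apart at 4 time points, at 250.9 CPM at ZT2 (others 3.63 to 23.1 CPM), 53.66 CPM at ZT10, 31.64 CPM at ZT14 and 56.2 CPM at ZT18. Sds was also high in polysomal replicate 6 at ZT22 (152.4 CPM), in Bmal1-/- replicate 2 at ZT14 (27.39 CPM) and in the same replicate at ZT22 (100.8 CPM).

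Gls2 was high in 7 libraries. These were wild-type total replicate 5 at ZT18 (361.4 CPM) and ZT22 (472.1 CPM), nuclear replicate 5 at ZT18 (132.5 CPM) and ZT22 (138.1 CPM), polysomal replicate 1 at ZT18 (423.0 CPM) and ZT22 (529.0 CPM), and Bmal1-/- replicate 3 at ZT22 (387.9 CPM). Hal was high in 3 of the same libraries, wild-type total replicate 5 at ZT22 (367.5 CPM) and polysomal replicate 1 at ZT18 (258.3 CPM) and ZT22 (500.8 CPM). The wild-type, nuclear and polysomal libraries at ZT22 named here are those with over 100 CPM of Xist.

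Glul was high in wild-type total replicate 1 at ZT18 (1096 CPM), polysomal replicate 3 at ZT6 (1314 CPM), polysomal replicate 4 at ZT18 (958.3 CPM) and Bmal1-/- replicate 2 at ZT22 (1312 CPM). Oat was high in replicate 4 at ZT14 in both total (807.3 CPM) and nuclear RNA (424.2 CPM) of wild-type mice. Axin2 was high in that total library too (6.51 CPM), and in polysomal replicate 2 at ZT10 (4.11 CPM) and replicate 6 at ZT22 (9.18 CPM). Lect2 was high in nuclear replicate 6 at ZT18 (192.7 CPM) and replicate 5 at ZT22 (237.2 CPM).

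Tbx3 was high in polysomal replicate 3 at ZT14 (69.04 CPM) and ZT22 (50.49 CPM) and low in Bmal1-/- replicate 5 at ZT18 (14.13 CPM). Cdh1 was low in nuclear replicate 3 at ZT2 (9.53 CPM) and high in polysomal replicate 3 at ZT2 (136.9 CPM) and replicate 1 at ZT22 (84.58 CPM).

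The correlation of Gls2 and Cdh1 was higher in wild-type than in Bmal1-/- total RNA by 0.767 (adjusted permutation p = 0.0256 over 45 pairs). Within wild-type replicates 1 to 3 the correlation of Gls2 and Cdh1 was 0.0278 and within replicates 4 to 6 it was 0.471.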

How the results depend on the processing

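Of 1904 values of single members under alternatives, 1815 kept their side of the threshold, 45 lost a call, 39 gained one and 5 were reversed. Reversed means a change of sign with a call in at least 1 of the 2 fits. Changes of sign without a call in either fit are among the 1815. Examples are Gls2 with replicates 1 to 3 only (0.15) and Hal with replicates 4 to 6 only (-0.22), both in polysomal RNA. The reversed values were Cdh1 (0.14) and Sds (0.21) in Bmal1-/- and Cdh1 (0.35) and Oat (0.02) in polysomal RNA, all with replicates 1 to 3 only, and the last Glul end in polysomal RNA (0.05) with replicates 4 to 6 only. With replicates 1 to 3 only, calls numbered 2 members for rhythm in wild-type total RNA, 0 in nuclear and 0 in polysomal RNA, 1 for the difference of rhythm in Bmal1-/-, 1 site for usage in Bmal1-/-, 10 sites in polysomal RNA and 0 pairs. With replicates 4 to 6 only they numbered 3 for level in Bmal1-/-, 2 and 0 for rhythm in total and nuclear RNA, and 1 pair. Sets of 3 hold fewer libraries, and the cause of the changes was not tested. Polysomal and total sets of the same numbers may also hold different livers. Leaving out 1 replicate gave 0 to 1 rhythm calls in nuclear RNA, and the other counts stayed within 1.5 times. Time as 6 levels gave 0 rhythm calls in polysomal RNA, and 1 fit of all series gave 3. At a minimum share of 10%, 4 of 6 nuclear sites tested passed. Pairs called numbered 2 with replicate sets taken out, 1 in Bmal1-/-, 12 in nuclear and 9 in polysomal RNA.

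With the replicate block, 2 members were rhythmic in wild-type total RNA (Hal and Cdh1, adjusted p = 0.00901 for Cdh1) and 3 in polysomal RNA (Hal, Cdh1 at 0.00835 and Tbx3 at 0.0249), and 1 site passed for usage in Bmal1-/- (the Glul end at 0.22). Level calls were 5, 10 and 7 in Bmal1-/-, nuclear and polysomal RNA. Sds lost its call in Bmal1-/- (-0.60, adjusted p = 0.151) and Gls2 gained one in polysomal RNA (-0.30, adjusted p = 0.0195). Deviations from group means over genes of same-numbered libraries had a mean r of 0.35 between nuclear and total RNA (34 of 36 over 0.1, and 32 best with their own number). The mean r was -0.13 for polysomal RNA (0 of 36 best with their own number) and 0.0767 for Bmal1-/- (13 of 36). For levels in these series the block joined libraries by number and time only. In Bmal1-/- the libraries so joined are of different mice, and in polysomal RNA they may be of different livers. Most nuclear numbers thus went with the same number in total RNA, yet the main fits took no pairs. With the replicate block, nuclear RNA had 10 level calls, 13 sites for usage and 0 members for the difference of rhythm. Depth limits Axin2 most, which had as few as 2 counts in a library.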
